A study of Mus musculus with 8 samples.

Results

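The genes described here are 33 mouse genes of homologous recombination, the Fanconi anaemia pathway and mismatch repair. They were taken by symbol from the 42454 genes of a raw count table, and the list was drawn up with earlier results of these data known. Of the 33, 32 passed the filter on low counts and were among the 11081 genes tested. The remaining member, Rad51c, held too few counts.

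Homologous recombination repairs a broken chromosome by copying the sister chromatid. The end is resected to a single strand, BRCA1, PALB2 and BRCA2 prepare it to invade the intact copy, and the joint molecules that follow are dissolved or cut. The Fanconi anaemia proteins recognise crosslinks between the strands of DNA, attach ubiquitin to the FANCD2-FANCI clamp and hand the lesion to nucleases and to recombination. Mismatch repair corrects errors left by the replicating polymerase. Sister chromatids exist only after replication, and many of these genes are transcribed mainly in dividing cells.

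The cells were RAW264.7, an established mouse line that resembles macrophages and divides in culture. Polyadenylated RNA was sequenced in 8 libraries, which the labels place in 4 groups of 2. The mock group received DMSO, the solvent. The TubB group received Tubuloside B, a phenylethanoid glycoside. The LPS_IFNg group received 10 ng/ml lipopolysaccharide with 20 ng/ml interferon-gamma for 24 h, and the LPS_IFNg_TubB group received that stimulus with Tubuloside B. For Tubuloside B no dose, and for mock and TubB no time, is given in the sources used here. Whether the labels' 2 libraries per group are separate cultures is not stated. The p-values rest on the spread between libraries of a group, estimated jointly over the 4 groups, and that spread may be technical.

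The libraries did not follow their stimulus labels. All 8 marker genes of lipopolysaccharide and interferon-gamma were higher in the libraries labelled TubB and LPS_IFNg_TubB than in those labelled mock and LPS_IFNg, and their summed level was 8708 to 11682 against 204 to 247 CPM (counts scaled to a common library size). Nos2, the inducible nitric oxide synthase, averaged 166 ± 14.6 CPM in mock and 183 ± 23.2 in LPS_IFNg, against 6363 ± 850 in TubB and 6792 ± 900 in LPS_IFNg_TubB (SD, n = 2 each). Il6, a cytokine gene, averaged 0.0698 ± 0.0987 CPM in mock, was at 0 counts in both LPS_IFNg libraries, and averaged 52.9 ± 20.2 in TubB and 56.6 ± 17.7 in LPS_IFNg_TubB (SD, n = 2 each). Whether a difference between libraries with and without the Tubuloside B label belongs to the compound or to the stimulus therefore cannot be told apart, and every group named below is the group as labelled. The 4 libraries labelled TubB or LPS_IFNg_TubB are called the libraries with the compound label. Libraries held 4767894 to 8413834 counts in all. Of 22 markers of other cell types, 12 had 0 counts in every library and the highest, Col1a1, had 32 in total. Of the 8 tested macrophage markers, 5 were called higher with the compound label and 1, Csf1r, lower.

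Promoters were matched by symbol in RefSeq (GRCm38.p6, the build of the deposited table) for 28 of the 33 members. Each promoter is 300 bases, 250 before and 50 after the start of the gene. They were searched on both strands for letters bound by E2F factors, which act at S phase genes (TTTGGCGC, TTTCCCGC, TTTGGCGG, TTTCCCGG), and for the cell cycle homology region of G2 and M phase genes (TTTGAA or TTCGAA). The 2 sets share no site where both occurred. The stretches below lie before the start that the promoter table gives. They are shown because they carry one of these letter groups, in capitals, in members that were lower in the libraries with the compound label. Stretches with more bases in an exon of the deposited annotation were left out. Brca2, which was also lower and has E2F letters at positions -168 to -161 from the start, is not shown for that reason. Ankle1 and Atr were among the members with the largest difference. Ankle1 is at chr8:71405962-71406011, plus strand, Parpbp at chr10:88146942-88146990, minus strand, Atr at chr9:95857347-95857427, plus strand, Bard1 at chr1:71103134-71103222, minus strand, and Polq at chr16:37011536-37011589, plus strand. In the deposited annotation an earlier start puts 26 of the Ankle1 bases, 28 of the Parpbp bases and 8 of the Bard1 bases in the first exon, and those of Atr and Polq are in no exon. Each is written 5′ to 3′ along its gene. In Polq the capitals are read from the opposite strand, and Bard1 holds both letter groups. Matches that reach past the start are not printed. Polq has another match on its own strand at positions -3 to 2, and Parpbp another on the opposite strand at 13 to 18.
Ankle1: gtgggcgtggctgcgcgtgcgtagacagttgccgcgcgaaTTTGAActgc

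Parpbp: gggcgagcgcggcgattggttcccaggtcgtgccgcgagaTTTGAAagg

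Atr: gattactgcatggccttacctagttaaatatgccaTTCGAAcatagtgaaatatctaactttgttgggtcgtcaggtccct

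Bard1: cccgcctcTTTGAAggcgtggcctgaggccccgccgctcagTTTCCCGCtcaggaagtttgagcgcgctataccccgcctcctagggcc

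Polq: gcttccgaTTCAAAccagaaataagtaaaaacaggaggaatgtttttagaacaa

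The E2F letters were in 6 of the 28 member promoters (21.4%), against 3.79% of 27025 genes in the promoter table and 7.03% of the 8674 tested genes that have one. Besides Bard1, Brca2 and Fancg, these were Chek1, Msh6 and a second promoter of Rad51c. The cell cycle letters were in 6 of 28 (21.4%), against 21.7% of all genes and 16.9% of tested genes. They were Ankle1, Parpbp, Atr, Bard1, Eme1 and Polq. All 6 are among the 21 members with a promoter that were called lower in the comparison that follows (28.6%). Of the 7 not called lower, 0 have these letters. Since 21 of the 28 were called lower, most matches would fall there at an equal share too. The call of Polq was lost when any 1 of 5 libraries was left out. The E2F letters were in 4 of those 21 (19.0%) and in 2 of the 7 not called lower (28.6%). In Ankle1 and Parpbp the cell cycle letters printed above lie at positions -10 to -5 and -9 to -4 from the start. Fancg holds E2F letters at positions -52 to -45. A match describes letters in this window, not binding, and no test was made on these counts.

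Most of the 33 genes were lower in the libraries with the compound label, by a similar amount with and without the stimulus label. In the contrast that averages both backgrounds, 4 libraries against 4, 25 of the 32 tested members fell, 3 rose (Mus81, Slx4 and Atm) and 4 did not pass the test (Brip1, Fancc, Fancg and Rad51d). The test was edgeR's quasi-likelihood test, and a gene was called where the p-value adjusted over all 11081 genes was under 0.05. Over all tested genes, 31.5% were called lower and 31.7% higher in this contrast, 63.2% in all. The median log2 fold change of the members was -0.70, where all genes had a median of -0.02 and a 10th to 90th percentile range of -0.82 to 1.06. The 4 libraries with the label lay below the other 4 without overlap for 26 of 32 members (81.2%) and above them for 2 (6.25%), against 29.1% and 29.7% of all tested genes. Summed over all 33 members, the level was 1130 to 1243 CPM in the 4 libraries without the label and 757 to 890 CPM in the 4 with it.

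The 3 calls higher depend on the scaling. TMM factors, which edgeR uses to scale libraries, were 1.07 to 1.08 without the compound label and 0.909 to 0.948 with it. With plain library totals, an alternative chosen after seeing the data, the median of all genes moved to -0.23, and 28 members were called lower, with Brip1, Fancc and Rad51d added, and 0 higher. The split over all genes was then 2433 higher and 5051 lower, against 3510 and 3492 with TMM factors. Under plain totals the log2 fold changes of Atm, Slx4 and Mus81 were 0.0049, 0.15 and 0.24, all above that median of all genes.

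**Figure D1:**
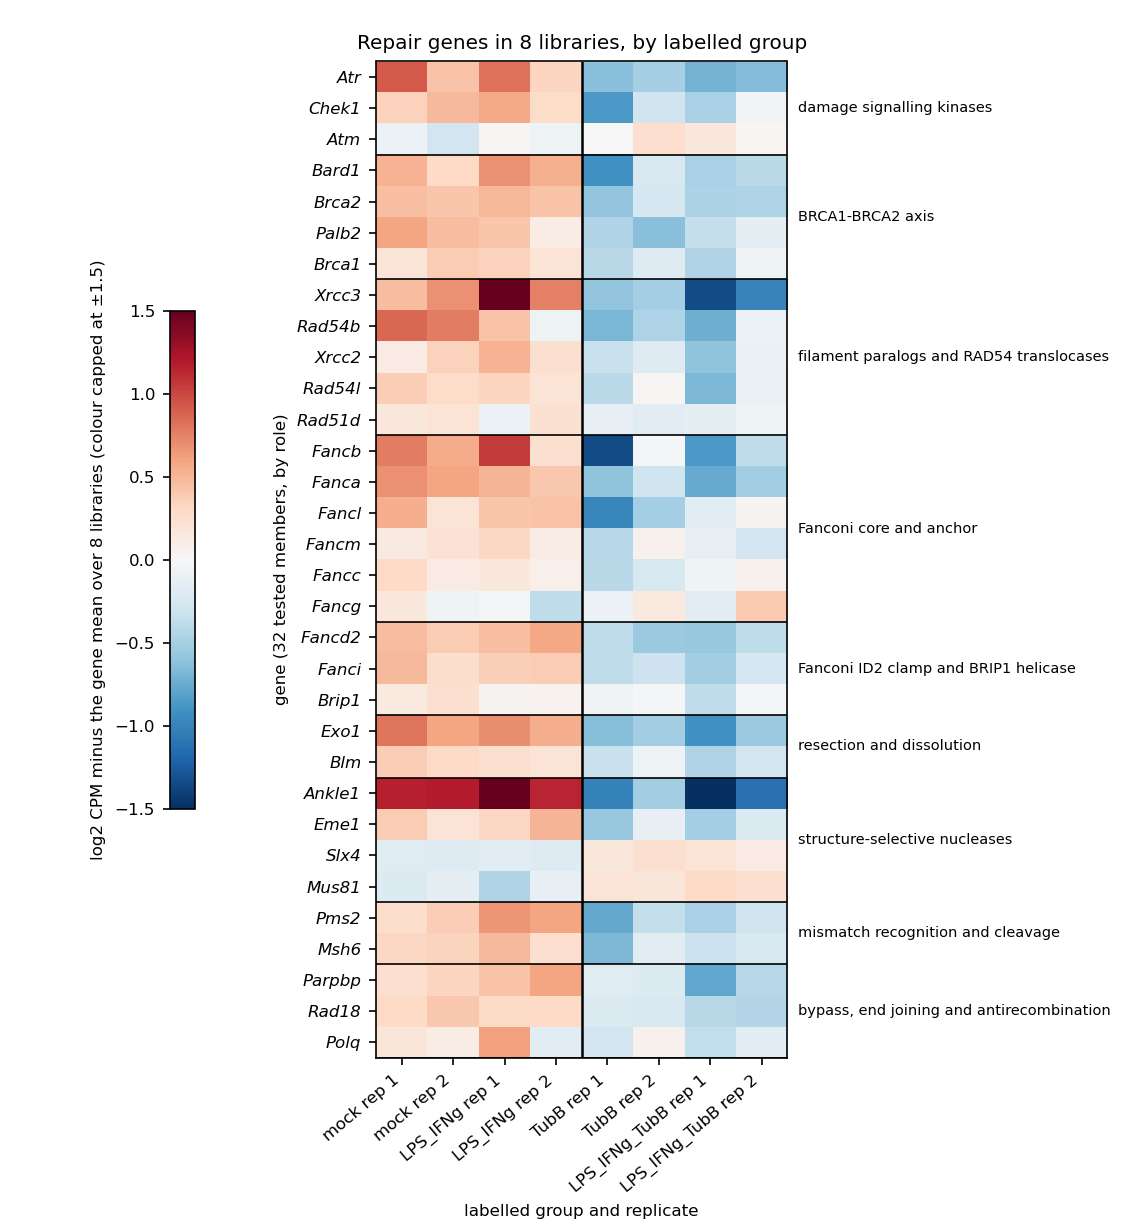
Level of each of the 32 tested members in each of the 8 libraries, as log2 CPM minus the mean of the gene over the libraries (colour, capped at 1.5 either way), with genes in rows by role and libraries in columns by labelled group. The 4 libraries right of the vertical line, with the compound label, are lower than the 4 on the left without overlap for 26 genes and higher for Mus81 and Slx4.

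Both contrasts that add the compound label gave similar counts, and they share no library. Between TubB and mock, 22 members were called lower, 2 higher and 8 neither, with a median log2 fold change of -0.64; over all genes 24.9% were called lower and 26.3% higher (51.2% in all). Between LPS_IFNg_TubB and LPS_IFNg, 22 were lower, 2 higher and 8 neither, with a median of -0.65; over all genes the shares were 25% and 26.2% (51.2% in all). With 1 library left out in turn, the counts called lower ran from 18 to 21 in the first contrast and from 16 to 23 in the second. The members called lower in both numbered 18, or 81.8% of each list. Among these 18, the calls of Fancb and Rad54l in both contrasts were lost on leaving out certain single libraries. So were those of Eme1 and Parpbp in the first contrast and of Brca1 and Chek1 in the second. Their weakest changes were then -0.67 and -0.81 (Fancb), -0.31 and -0.37 (Rad54l), -0.41 (Eme1), -0.45 (Parpbp), -0.32 (Brca1) and -0.47 (Chek1). Fancc, Fancl, Palb2 and Rad54b were called in the first only, and Fancm, Polq, Xrcc2 and Xrcc3 in the second only. Of these 8, Fancl and Xrcc3 kept both calls whichever library was left out. In the first contrast Fancc was not called without any 1 of the 8 libraries (adjusted p from 0.0519 to 0.225), and Fancm was called without TubB replicate 2 (-0.59, adjusted p = 0.00452). In the second contrast Palb2 was called without LPS_IFNg replicate 2 (-0.65, adjusted p = 0.0453) and Rad54b without LPS_IFNg_TubB replicate 2 (-0.93, adjusted p = 0.0404). There Xrcc2 was not called without replicate 1 of LPS_IFNg (-0.56) or of LPS_IFNg_TubB (-0.49), Fancm without LPS_IFNg replicate 1 (-0.33) or LPS_IFNg_TubB replicate 2 (-0.35), and Polq without LPS_IFNg replicate 1 (-0.10) or any 1 of 4 other libraries. That a gene passed in one contrast and not in the other is no test of a difference: the interaction, which tests it, called 0 of 32 members and 0 of all 11081 genes by edgeR and by DESeq2, with 3 members and 277 genes at an unadjusted edgeR p under 0.05. Those 3 were Ankle1 (-1.10 ± 0.40), Parpbp (-0.61 ± 0.24) and Rad54b (0.81 ± 0.38; log2 ± SE, edgeR adjusted p = 0.9999 for each). Slx4 was the 1 member called higher in both contrasts, beside Atm in the first and Mus81 in the second. The calls of Atm in the first contrast and of Mus81 and Slx4 in the second rest on single libraries. That of Slx4 in the first was kept whichever library was left out, with a change of 0.37 to 0.43. Atm then ran from 0.20 to 0.43 in the first contrast. In the second, Mus81 ran from 0.39 to 0.73 and Slx4 from 0.30 to 0.38.

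**Figure D2:**
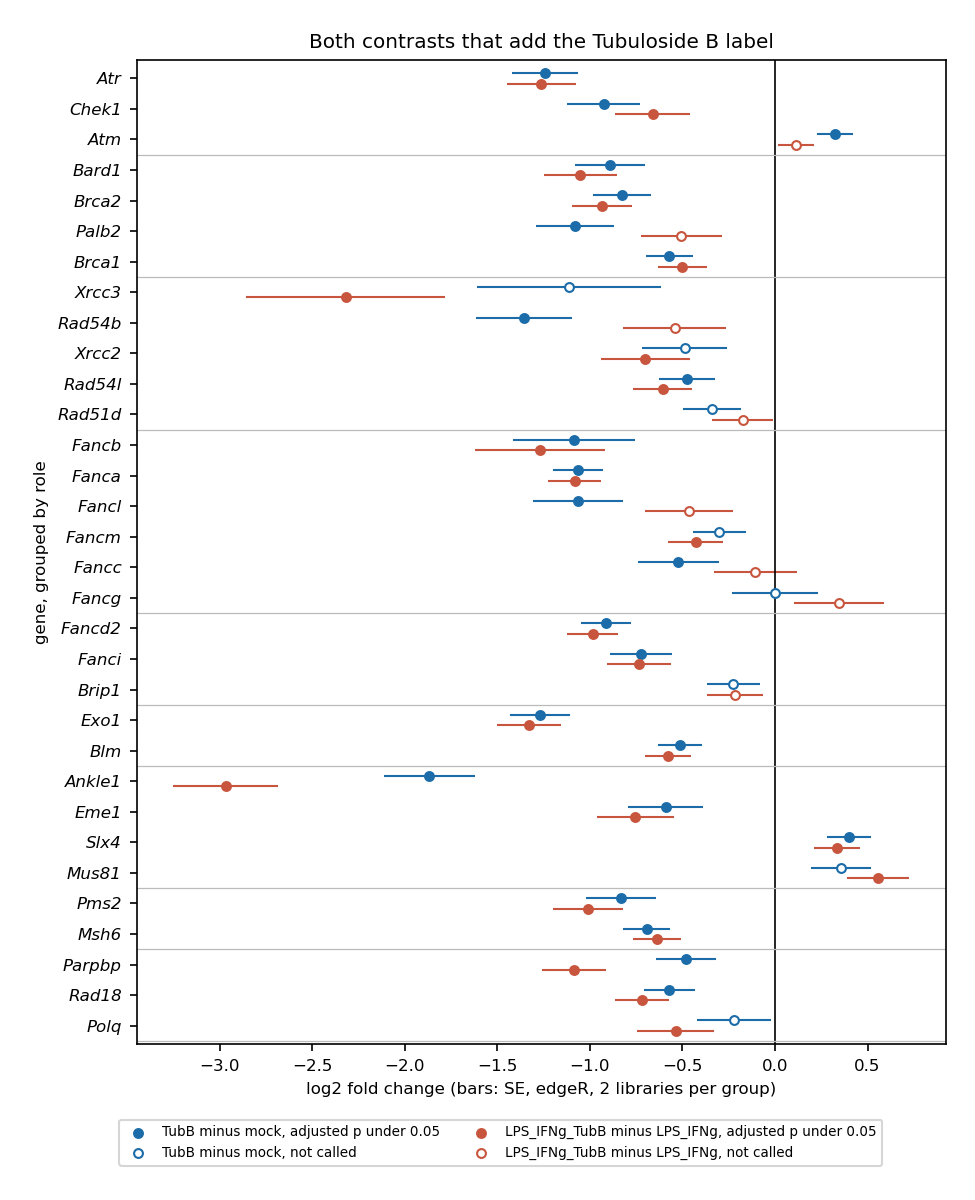
Log2 fold change of each tested member between TubB and mock (blue) and between LPS_IFNg_TubB and LPS_IFNg (red), with bars for the SE from edgeR and 2 libraries per group. Filled points passed an adjusted p of 0.05, and 28 of 32 members are below 0 in both contrasts.

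The stimulus label alone moved none of these genes past the test. Between LPS_IFNg and mock, edgeR called 0 of 32 members, with log2 fold changes from -0.61 to 0.62 around a median of 0.02, and 1 member, Rad54b, at an unadjusted p under 0.05. Between LPS_IFNg_TubB and TubB it also called 0 of 32, from -0.86 to 0.64 around -0.05, with 3 at an unadjusted p under 0.05 (Ankle1, Fancl and Parpbp). Over all 11081 genes the calls were 0 (0%) in both, with 247 and 269 genes at an unadjusted p under 0.05, and DESeq2 also called 0. These contrasts share libraries with those above.

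Among the damage signalling kinases, Atr and Chek1 fell while Atm rose slightly. ATR, encoded on chromosome 9 (95857597 to 95953217, plus strand, 47 merged exons), is the kinase that answers stalled replication forks and single-stranded DNA. Atr was at 78.2 and 55.7 CPM in the mock libraries, 72.6 and 51.6 in LPS_IFNg, 26.8 and 29.4 in TubB, and 25.3 and 26.4 in LPS_IFNg_TubB. The groups did not overlap, and the replicates without the compound label were further apart than those with it. The averaged log2 fold change was -1.25 ± 0.13 (SE, edgeR adjusted p = 1.59e-07), that is 42% of the level without the label. Chek1 encodes CHK1, the kinase that ATR activates. It was at 24.8 and 27.6 CPM in mock, 29.1 and 23.8 in LPS_IFNg, 10.8 and 16 in TubB, and 14 and 19.0 in LPS_IFNg_TubB, again without overlap (-0.79 ± 0.14, edgeR adjusted p = 1.58e-05).

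ATM is the related kinase that answers double-strand breaks. Atm was at 107 and 93.8 CPM in mock, 116 and 108 in LPS_IFNg, 114 and 135 in TubB, and 127 and 116 in LPS_IFNg_TubB. The groups overlapped, since LPS_IFNg replicate 1 stood above TubB replicate 1. Its averaged log2 fold change was 0.22 ± 0.07 (edgeR adjusted p = 0.00709), and it missed the threshold when mock replicate 2 (0.17, adjusted p = 0.0613) or TubB replicate 2 (0.16, adjusted p = 0.0540) was left out, and with plain library totals. A ratio within a library does not depend on scaling. Atr counts were 0.729, 0.594, 0.628 and 0.476 times those of Atm in the 4 libraries without the compound label and 0.234, 0.217, 0.199 and 0.228 times in the 4 with it. The log2 difference was -1.45. This ratio and the 2 below were chosen after their values were seen, so they are descriptions with no test.

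All 4 genes of the BRCA1-BRCA2 axis fell. BARD1 is the partner that forms the BRCA1 ubiquitin ligase. Bard1 was at 29.4 and 25.2 CPM in mock, 33.1 and 29.7 in LPS_IFNg, 11 and 17.5 in TubB, and 14.7 and 15.5 in LPS_IFNg_TubB, so the highest library with the label was well below the lowest without it (-0.97 ± 0.14, edgeR adjusted p = 3.66e-07). BRCA2 acts after resection, on single-stranded DNA. Brca2 was at 35.9 and 34.9 CPM in mock, 37.0 and 35.3 in LPS_IFNg, 17.3 and 21.9 in TubB, and 18.8 and 19.0 in LPS_IFNg_TubB, without overlap by label and with the widest gap between replicates in TubB (-0.88 ± 0.11, edgeR adjusted p = 7.62e-08). PALB2 joins BRCA1 to BRCA2. Palb2 was at 20.8 and 19.0 CPM in mock, 18.4 and 14.9 in LPS_IFNg, 10.1 and 8.92 in TubB, and 10.8 and 12.6 in LPS_IFNg_TubB (-0.79 ± 0.15, edgeR adjusted p = 4.4e-05). Its change was -1.08 ± 0.21 from mock to TubB and -0.51 ± 0.22 between the stimulus-labelled groups, where it missed the threshold (edgeR adjusted p = 0.053). Brca1 itself, at 64.2 to 72.8 CPM without the label and 41.1 to 53.9 with it, changed by -0.54 ± 0.09, to 69% of its level.

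The next members stabilise the filament that searches for the intact copy, or, as RAD54 translocases, drive strand exchange. Of the 5 tested, Xrcc3, Rad54b, Xrcc2 and Rad54l fell and Rad51d did not pass. Xrcc3 (chromosome 12, 111803192 to 111813893, minus strand) held few counts, with 23 and 26 in mock, 41 and 23 in LPS_IFNg, 7 and 13 in TubB, and 4 and 7 in LPS_IFNg_TubB. In CPM these were 3.21 and 3.75, 6.75 and 3.91, 1.54 and 1.63, and 0.918 and 1.16, which did not overlap between libraries with and without the label. Its averaged log2 fold change was -1.72 ± 0.37 (edgeR adjusted p = 0.000176), the second largest among the members in this fit. Under alternatives that kept all 8 libraries its weakest value was -0.47, where that of Exo1 was -0.76. The rank therefore depends on the method. Exons of Klc1 on the other strand cover 55.5% of the Xrcc3 exon bases, and the kit and the counting kept no strand, so reads there cannot be assigned to one gene.

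Rad54b was at 16.6 and 15.6 CPM in mock, 12.3 and 8.66 in LPS_IFNg, 5.71 and 6.66 in TubB, and 5.51 and 8.59 in LPS_IFNg_TubB. LPS_IFNg replicate 2 and LPS_IFNg_TubB replicate 2 nearly met, while mock and TubB were far apart. The averaged change was -0.95 ± 0.19 (edgeR adjusted p = 7.72e-05). Of its exon bases, 58.5% are shared with Fsbp on the same strand. Xrcc2 was at 13 and 15.1 CPM in mock, 17.1 and 14.1 in LPS_IFNg, 9.44 and 10.4 in TubB, and 7.81 and 11.1 in LPS_IFNg_TubB, all with the label below all without it (-0.59 ± 0.17, edgeR adjusted p = 0.00264). Rad54l, at 48.2 to 54.1 CPM without the label, was at 26.4 to 42.3 with it (-0.54 ± 0.11), and Lrrc41 on the other strand shares 21.4% of its exon bases. Rad51d overlapped, at 24.4 to 30.2 CPM against 23.0 to 24.8, with a change of -0.26 ± 0.11 (edgeR adjusted p = 0.0511), which passed without LPS_IFNg replicate 1 (-0.34, adjusted p = 0.0253). Rad51c had 0 and 5 counts in mock, 0 and 2 in LPS_IFNg, and 0 in all 4 libraries with the label. A numbered copy of Rad51c on another scaffold held 25 counts in all, and reads that map to both were left out under the default of the counting program, so its level is uncertain and no fold is given.

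In the Fanconi core complex, the ubiquitin ligase for the FANCD2-FANCI clamp, and its anchor FANCM, 4 of the 6 members fell and 2, Fancc and Fancg, did not pass. FANCB is part of the catalytic module with FANCL, the ligase subunit. Fancb was at 14.2 and 12.3 CPM in mock, 17.3 and 9.85 in LPS_IFNg, 3.29 and 8.29 in TubB, and 4.59 and 6.44 in LPS_IFNg_TubB. Its replicates differed widely in 3 of the 4 groups, yet the libraries did not overlap by label (-1.18 ± 0.24, edgeR adjusted p = 0.000281). Fancl was at 16.3 and 13 CPM in mock, 15 and 15.1 in LPS_IFNg, 5.71 and 7.92 in TubB, and 10.1 and 11.6 in LPS_IFNg_TubB (-0.76 ± 0.17, edgeR adjusted p = 0.000255). The 2 TubB libraries were lowest. Vrk2 on the other strand shares 21.8% of its exon bases.

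FANCA is a core subunit and the one most often mutated in Fanconi anaemia. Fanca was at 62.4 and 58.4 CPM in mock, 55.3 and 51.1 in LPS_IFNg, 25.5 and 31.4 in TubB, and 23.0 and 26.9 in LPS_IFNg_TubB, so each library with the label was far below those without it. Its change was -1.07 ± 0.10 (edgeR adjusted p = 1.03e-10), with -1.07 ± 0.13 and -1.08 ± 0.14 in the separate contrasts. Fancg, whose protein binds FANCA directly, was at 9.51 to 13.8 CPM without the label and 11 to 16.2 with it (0.17 ± 0.17, edgeR adjusted p = 0.379). The ratio of Fanca to Fancg counts was 4.52, 4.94, 4.54 and 5.38 without the label and 2.19, 2.29, 2.08 and 1.66 with it, a log2 difference of -1.24. Zfp276 on the other strand shares 22% of the Fanca exon bases. Fancm, a translocase that finds stalled forks, was at 45 to 51.8 CPM without the label and 31 to 43.7 with it (-0.36 ± 0.10). Fancc, at 12.9 to 15.1 CPM against 9.22 to 12.9, changed by -0.31 ± 0.16 (edgeR adjusted p = 0.0836). Aopep exons cover 17.7% of it on the other strand.

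Both subunits of the clamp fell, by similar amounts. Fancd2 was at 54.7 and 51.2 CPM in mock, 53.8 and 58.6 in LPS_IFNg, 30.1 and 26.6 in TubB, and 26.4 and 30.1 in LPS_IFNg_TubB. The 4 values with the label spanned only 26.4 to 30.1, and the averaged change was -0.95 ± 0.10 (edgeR adjusted p = 7.37e-10), to 51.8% of the level. Fanci was at 32.9 and 28.1 CPM in mock, 30.0 and 30.2 in LPS_IFNg, 18 and 18.8 in TubB, and 16.3 and 19.5 in LPS_IFNg_TubB, also with no overlap (-0.73 ± 0.12, edgeR adjusted p = 4.61e-06). Polg on the other strand shares 12.5% of the Fanci exon bases. BRIP1 is the helicase that binds BRCA1. Brip1 was at 36.7 and 39.1 CPM in mock, 34.1 and 34.3 in LPS_IFNg, 32.1 and 32.7 in TubB, and 25.5 and 32.7 in LPS_IFNg_TubB. Its 4 libraries with the label were the lowest, but the difference was small and did not pass (-0.22 ± 0.10, edgeR adjusted p = 0.0636). It passed when LPS_IFNg_TubB replicate 2 was left out (-0.33, adjusted p = 0.0178) and with plain library totals (-0.43, adjusted p = 0.000824).

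Exo1 and Blm act at the start and end of recombination. EXO1 is the nuclease of long-range resection, and it also removes the error-bearing strand in mismatch repair. Exo1 (chromosome 1, 175880768 to 175911396, plus strand) was at 43.0 and 36.9 CPM in mock, 39.8 and 35.8 in LPS_IFNg, 15.8 and 17.1 in TubB, and 13.1 and 16.7 in LPS_IFNg_TubB. The highest library with the label was under the lowest without it by more than the range within either set, and the change was -1.30 ± 0.12 (edgeR adjusted p = 9.94e-11). BLM, a helicase, unwinds ends for resection and dissolves joint molecules. Blm was at 69.2 and 65.9 CPM in mock, 63.4 and 62.0 in LPS_IFNg, 42.6 and 51.0 in TubB, and 39.3 and 44.4 in LPS_IFNg_TubB (-0.55 ± 0.09, edgeR adjusted p = 2.53e-06).

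The structure-selective nucleases were divided. Ankle1 fell more than any other member, Eme1 fell, and Mus81 and Slx4 rose. ANKLE1 is an endonuclease of branched DNA known from blood-forming tissue, and it cuts chromatin bridges in dividing cells. Ankle1 (chromosome 8, 71405986 to 71410728, plus strand) was at 25.8 and 26.1 CPM in mock, 35.7 and 25.5 in LPS_IFNg, 5.71 and 8.04 in TubB, and 2.07 and 5.29 in LPS_IFNg_TubB. These rest on 150 to 217 counts per library without the label and 9 to 64 with it. The averaged log2 fold change was -2.42 ± 0.19 (edgeR adjusted p = 1.97e-11), a 5.35-fold lower level, and -1.87 ± 0.25 and -2.97 ± 0.28 in the separate contrasts.

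MUS81 and EME1 are the 2 subunits of one nuclease, which cuts joint molecules, and SLX4 is the scaffold that binds it. Eme1 was at 21.2 and 18.8 CPM in mock, 20.2 and 23.3 in LPS_IFNg, 11 and 15 in TubB, and 11.5 and 14 in LPS_IFNg_TubB (-0.67 ± 0.15, edgeR adjusted p = 0.000193). Mus81 went the other way, at 21.5 and 22.5 CPM in mock, 18.1 and 22.8 in LPS_IFNg, 28.3 and 28.0 in TubB, and 30.5 and 29.6 in LPS_IFNg_TubB (0.46 ± 0.12, edgeR adjusted p = 0.00117). All 4 libraries with the label were above the others for Mus81 and below them for Eme1. The ratio of Eme1 to Mus81 counts, which scaling does not touch, was 0.987, 0.833, 1.12 and 1.02 without the label and 0.388, 0.534, 0.376 and 0.475 with it (log2 difference -1.17). Slx4 was at 40.1 and 39.8 CPM in mock, 40.8 and 39.9 in LPS_IFNg, 51.4 and 53.8 in TubB, and 52.6 and 49.6 in LPS_IFNg_TubB. Replicates differed by less than 4 CPM in each group, and the change was 0.37 ± 0.09 (edgeR adjusted p = 0.000526). Lrrc59, with 20869 counts, shares 8.7% of the Eme1 exon bases on the other strand.

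Both mismatch repair members fell. MSH6 recognises mismatches. Msh6 was at 96.3 and 97.7 CPM in mock, 108 and 91.9 in LPS_IFNg, 48.3 and 69.4 in TubB, and 62.0 and 66.1 in LPS_IFNg_TubB, with TubB replicate 1 the lowest (-0.67 ± 0.09, edgeR adjusted p = 9.58e-07). PMS2 nicks the strand to be removed. Pms2 was at 22.5 and 24.1 CPM in mock, 29.6 and 28.2 in LPS_IFNg, 11 and 14.6 in TubB, and 13.3 and 15.2 in LPS_IFNg_TubB (-0.92 ± 0.13, edgeR adjusted p = 6.09e-07).

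Parpbp, Rad18 and Polq, which restrain or stand in for recombination, also fell. PARPBP holds recombination in check. Parpbp was at 28.2 and 29.4 CPM in mock, 31.8 and 35.5 in LPS_IFNg, 20.9 and 20.5 in TubB, and 13.8 and 17.5 in LPS_IFNg_TubB (-0.78 ± 0.12, edgeR adjusted p = 1.5e-06). Pmch on the other strand, with 7 counts in all, shares 10.4% of its exon bases. RAD18 marks PCNA with ubiquitin for damage bypass. Rad18 was at 39.8 and 42.8 CPM in mock, 39.3 and 39.9 in LPS_IFNg, 28.1 and 27.5 in TubB, and 24.3 and 23.8 in LPS_IFNg_TubB, with replicates within 4 CPM of each other (-0.65 ± 0.10, edgeR adjusted p = 2.08e-06). POLQ is the polymerase of microhomology end joining. Polq was at 31.4 and 30.0 CPM in mock, 42.6 and 25.0 in LPS_IFNg, 22.8 and 29.0 in TubB, and 21.6 and 24.8 in LPS_IFNg_TubB. The groups overlapped, and the call (-0.38 ± 0.14, edgeR adjusted p = 0.0269) was gone without LPS_IFNg replicate 1 (-0.16, adjusted p = 0.307). The same held without mock replicate 1 (-0.37, adjusted p = 0.0731), mock replicate 2 (-0.40, adjusted p = 0.0503), TubB replicate 1 (-0.30, adjusted p = 0.0671) or LPS_IFNg_TubB replicate 1 (-0.33, adjusted p = 0.0984).

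Per kilobase of exon, levels of the members differed by more than the label moved most of them. In mock, Msh6 was highest at 22.7 ± 0.225 RPKM, followed by Rad18 at 15.1 ± 0.792 and Blm at 11.2 ± 0.387, and Xrcc3 was lowest of those tested at 1.10 ± 0.121 (SD, n = 2; RPKM is CPM per kilobase of exon). The exon length includes bases shared with another gene, where reads cannot be assigned to a single gene. These are 55.5% of the exon bases of Xrcc3 and 58.5% of those of Rad54b. Their RPKM, and the place of Xrcc3 as lowest, are therefore uncertain. Brca1 at 9.83 ± 0.877 and Fancd2 at 9.53 ± 0.445 did not differ beyond their spread, nor did Atr at 6.94 ± 1.65 and Parpbp at 6.92 ± 0.210. Ankle1 changed its place in this order. It stood at 8.70 ± 0.0686 RPKM in mock and 10.3 ± 2.43 in LPS_IFNg, close to Fanca and Atm, and at 2.30 ± 0.552 in TubB and 1.23 ± 0.763 in LPS_IFNg_TubB. Mus81 went from 9.05 ± 0.294 in mock to 11.6 ± 0.0903 in TubB and 12.4 ± 0.278 in LPS_IFNg_TubB, above Blm, which was at 7.75 ± 0.984 and 6.93 ± 0.608 there.

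**Figure D3:**
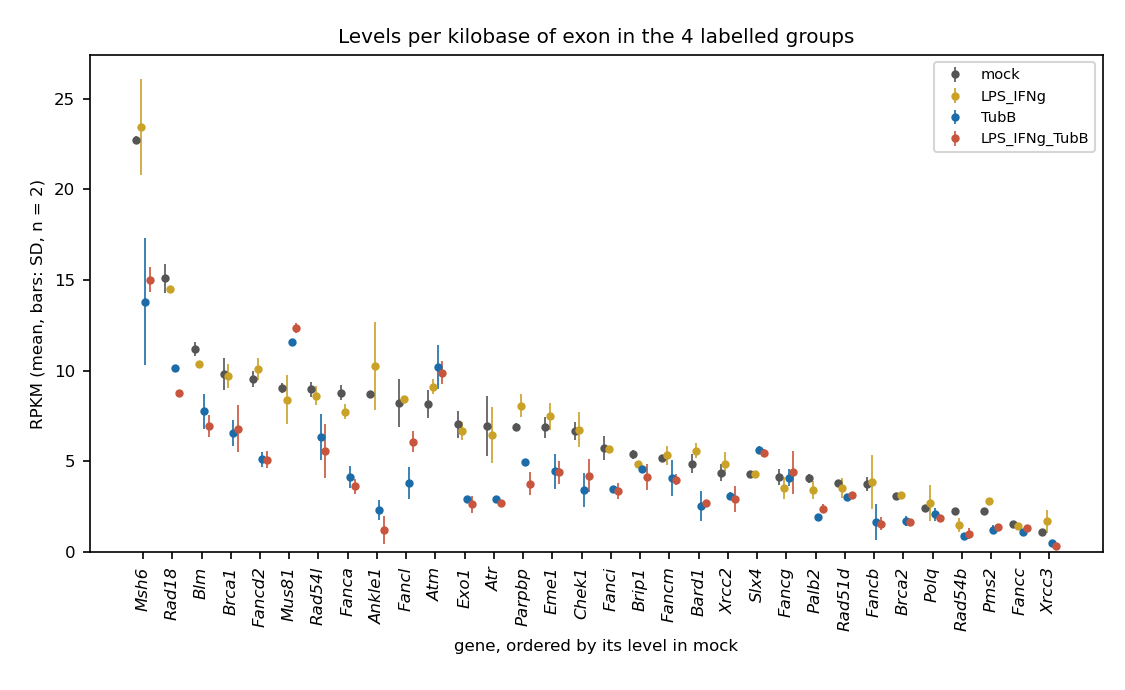
Mean level per kilobase of exon (RPKM, with SD bars, n = 2) of each tested member in the 4 labelled groups, ordered by the level in mock. The exon length includes bases shared with other genes, so the levels of Xrcc3 and Rad54b are uncertain. Msh6 is highest in all 4 groups, Ankle1 drops from 8.70 in mock to 1.23 in LPS_IFNg_TubB, and Mus81, Atm and Slx4 are higher with the compound label.

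Other genes of these pathways, from a list of 54 of which 50 were tested, were divided more evenly: 27 fell, 9 rose and 14 did not pass, with a median log2 fold change of -0.40. Among the larger changes were Rmi2 (1.53 ± 0.51), a BLM partner, and Faap100 (-0.99 ± 0.16), a Fanconi core subunit. Rmi2 passed at an edgeR adjusted p of 0.0230. The members were chosen with results of these data known, so the gap between both medians is a description.

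The neighbouring lists had medians below 0 as well, and differed in the share of genes that fell. Of 14 tested partners of ATR and the checkpoint, 12 fell and 1, Rad17, rose (0.32; named after its value was seen), with a median of -0.70. Wee1, the kinase that delays mitosis, fell by 1.42 on the log2 scale, H2afx, the histone marked at breaks, by 1.38, Etaa1 by 0.92 and Topbp1, both activators of ATR, by 0.84. In end joining, 9 of 19 fell and 1 rose (median -0.30), with Xrcc5 at -1.44 and Xrcc6 at -1.27, the Ku subunits that hold broken ends, Parp1 at -1.33 and Rif1 at -1.08. In base excision repair, 9 of 16 fell and 1 rose (median -0.52), led by the glycosylase Mutyh at -1.70, the nuclease Apex1 at -1.69 and the glycosylases Ung at -1.54 and Neil3 at -1.14. In nucleotide excision repair, 8 of 17 fell and 4 rose (median -0.30), and Gtf2h4 at -1.07 had the largest change. With plain library totals 0 genes of the ATR and nucleotide excision lists were called higher.

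Genes of the cell cycle moved with the members. Of 23 tested S phase genes, 19 fell and 2 rose (median -0.66), with Tk1 at -1.63. All 19 tested G2 and M phase genes fell (median -1.07), with Bub1b at -1.76 and Plk1 at -1.56. Their summed level was 3001 to 3316 CPM in the libraries without the compound label and 1495 to 1901 in those with it, and that of the S phase genes 3245 to 3414 and 2080 to 2433. Mki67, the proliferation marker, changed by -1.08 ± 0.11 and Top2a by -0.48 ± 0.08 (edgeR adjusted p = 0.000117 and 0.00015). Replicates of one group with the compound label differed in these genes too. In TubB, 26 of 32 members were higher in replicate 2 than in replicate 1 (median log2 difference 0.23), as were 18 of 19 G2 and M genes (median 0.32). In LPS_IFNg_TubB, 27 of 32 members (median 0.20) and all 19 G2 and M genes (median 0.23) were higher in replicate 2. The stimulus markers differed the other way, with 0 of 8 higher in replicate 2 of TubB (median -0.44) and 1 of 8 in LPS_IFNg_TubB (median -0.28). In mock and LPS_IFNg, 13 and 9 of 32 members were higher in replicate 2, with medians of -0.07 and -0.12. Of the 19 G2 and M genes, 5 in mock and 2 in LPS_IFNg were higher in replicate 2, with medians of -0.07 and -0.09. The parts of the cell cycle and of the stimulus in the members' difference were not tested. In RNA of whole cultures, fewer cells in S and G2 phase and less of these RNAs per cell cannot be told apart.

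**Figure D4:**
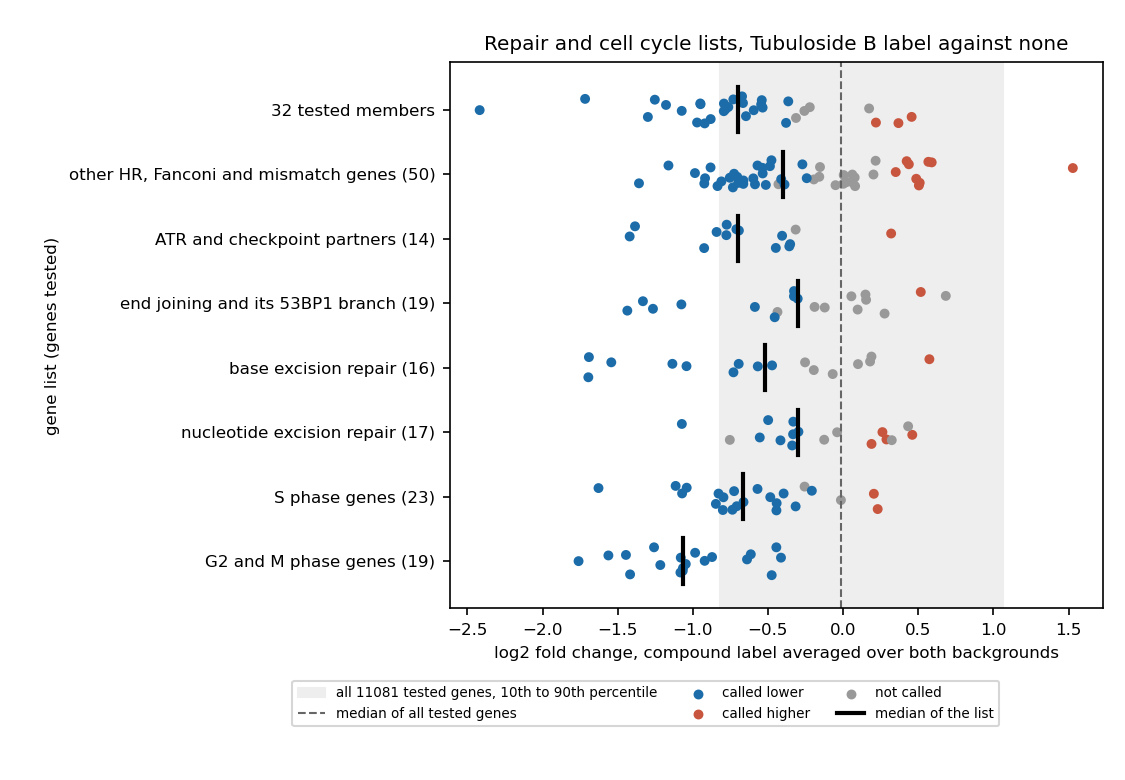
Log2 fold change, averaged over both backgrounds, of each tested gene in the members and in 7 other lists, with black bars at the list medians, the grey band at the 10th to 90th percentile of all 11081 genes and the dashed line at their median. Blue points were called lower and red points higher by edgeR; the members and the S phase genes have medians of -0.70 and -0.66, and the G2 and M phase genes one of -1.07.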

How the data were processed

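The authors deposited a table of raw counts by gene and one of regularised log2 values (rlog), both covering the 8 libraries. Alignment used STAR 2.7.0 per the submitters' processing notes. Per the file headers, featureCounts 2.0.1 counted read pairs over exons by gene on the RefSeq annotation of GRCm38.p6, with no option for strand or multi-mapped reads, which the defaults leave out. Per the labels' protocols the kit was not strand-specific. All count columns were used; the rlog values served only as an alternative.

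Counts were tested with edgeR 4.0.16 in R 4.3.3: filterByExpr by group (minimum count 10, minimum total 15), TMM factors, robust quasi-likelihood fit of group over 8 libraries, Benjamini-Hochberg adjustment over 11081 genes, called under 0.05. SE is the fold change divided by the root of its F statistic. CPM uses TMM factors, and RPKM divides it by exon length. Alternatives used DESeq2 1.42.0 and limma 3.58.1 on rlog, other factors and filters, and each library left out. Scripts were tested on simulated data. Intervals of counting are not given, because the spread between libraries was used.

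Members and lists were chosen with earlier results of these data known. In each role class, up to 3 members with the largest averaged change, members called against the median's direction and the untested member have values in every library. Other lists name at most 4 called genes with the largest change, and Nos2, Il6, Mki67 and Top2a whatever their values. Some genes that this rule names are not reported here. Replicate numbers were not taken to pair libraries: correlations of their deviations were -0.05 to 0.15 over all genes and -0.44 to 0.22 over the members. The highest of each was between TubB and LPS_IFNg_TubB, where most members were higher in replicate 2.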

Additional observations from a re-analysis of the deposited data

How the results depend on the processing

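For members, the count called lower stayed within 1.5 times its value under every alternative in the averaged contrast and in both separate ones. Leaving out 1 library in turn gave 24 to 26, 18 to 21 (TubB minus mock) and 16 to 23 (LPS_IFNg_TubB minus LPS_IFNg), and 2 to 3, 1 to 2 and 0 to 2 members called higher. The median log2 fold change of members then ranged from -0.78 to -0.66, from -0.78 to -0.53 and from -0.90 to -0.49. On the rlog values, which are shrunken, it was -0.40, -0.35 and -0.39, and with plain library totals -0.91, -0.85 and -0.86, with 0 members called higher in all 3. DESeq2 called 1 member higher between LPS_IFNg_TubB and LPS_IFNg. With plain library totals the change of Atm there was -0.10 and the averaged change of Fancg -0.0386. Between TubB and mock Fancg was near 0 and turned to 0.0108 with RLE factors and 0.00493 with DESeq2, and with 1 library left out it ran from -0.13 (without TubB replicate 2) to 0.11 (without mock replicate 1), being above 0 also without replicate 1 of TubB (0.0977) or LPS_IFNg_TubB (0.00485); the cause was not tested. In the other lists, calls higher came to 0 with plain library totals for the ATR partners, nucleotide excision repair and S phase genes, and to 1 for S phase genes with DESeq2. With 1 library left out they ranged from 0 to 1 for the ATR partners, 1 to 2 for base excision repair, 1 to 2 for end joining and 1 to 2 for S phase genes. Where 1 library of a group remained, its spread was taken from the other groups. Among single members, the call of Fancc between TubB and mock was lost under 14 of 16 alternatives.

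With the replicate number as a block, 26 members were called lower and 3 higher in the averaged contrast, Rad51d being gained (adjusted p = 0.0474), 21 and 2 between TubB and mock, Fancc being lost (adjusted p = 0.0534), and 22 and 2 between LPS_IFNg_TubB and LPS_IFNg. The numbers were not taken to pair the libraries, so this says nothing of a weaker effect. Low counts limit Xrcc3, at 4 to 41 per library. Rad51c could not be tested. Whether its few counts come from depth or from leaving out reads shared with its numbered copy was not tested.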
